A study of Homo sapiens with 30 samples.

Results

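The gene expression of HCT116 cells treated with the lower dose of Omomyc was compared between 24 h and 6 h of treatment. The comparison was made by choosing the 3 libraries titled 2 µM Omomyc at 24 h and the 3 titled 2 µM Omomyc at 6 h, which are 6 of the 30 libraries of the series, and the 14775 of 57992 annotated genes whose mean over these 6 libraries was at least 0.5 RPKM (reads per kilobase of transcript, scaled by the reads of the library). HCT116 is a human colorectal carcinoma cell line, described in the labels as having stabilized MYC. The series holds RNA-Seq of HCT116 cells and of Ramos B lymphoma cells, left untreated or given 1 of 2 doses of Omomyc for 6 or 24 h. The labels give the lower HCT116 dose as 2 µM, whereas the methods give 2.5 µM. A time tag of the 3 libraries titled 24 h reads 4 h. The other libraries of the series titled 24 h, at 10 µM and in Ramos cells, carry the same tag. The titles were followed throughout. In both groups Omomyc was delivered with ProteoJuice, a protein transfection reagent, in low-serum medium, and medium with serum was added for incubations longer than 4 h, which applies to both times. Total RNA was depleted of ribosomal RNA and made into strand-specific libraries. The 3 untreated HCT116 libraries carry no time point, and the methods do not say whether they received ProteoJuice, so they are given here as a reference level only. The labels do not say that the replicates were separate cultures, and p-values therefore measure the spread between these libraries, which may be technical.

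MYC is a basic helix-loop-helix leucine zipper transcription factor that dimerizes with MAX and binds the E-box, and among its best known targets are genes of ribosome biogenesis and nucleotide and amino acid metabolism. Omomyc is a miniprotein made from the MYC dimerization and DNA-binding domain with altered zipper residues, so that it can pair with itself and with MAX and occupy E-boxes without a transactivation domain. A second set of genes matters for a time course of this kind: the immediate early genes (FOS, JUN, EGR and NR4A families), which are transcribed within minutes of growth factors, serum, stress or handling and whose unstable mRNAs are normally lost within hours.

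The libraries expressed epithelial markers. Of 10 colon epithelial markers 9 were expressed, among them EPCAM at 142 and 146 RPKM and KRT8 at 774 and 726 RPKM (means at 6 and 24 h), while GPA33 was not. The summed level of this list was 2164 to 2354 RPKM at 6 h and 2164 to 2362 RPKM at 24 h. Of 10 B cell markers only CD22 passed the level filter (0.804 RPKM at 6 h, 1.54 RPKM at 24 h), and the list summed to 0.755 to 1.26 RPKM at 6 h and 1.01 to 2.58 RPKM at 24 h, with 3 and 5 of the 10 genes at 0 in every library. Of 10 fibroblast markers only COL1A1 passed (3.89 RPKM at 6 h, 6.11 RPKM at 24 h), and none of 8 endothelial markers did. In RNA from whole cultures, fewer cells of a type and less RNA per cell cannot be told apart. The RPKM of all genes summed to 742468 to 836899 at 6 h and 669145 to 703766 at 24 h, and 5 abundant structural RNAs (RN7SL1, RN7SL2, RN7SK, RMRP and RPPH1) made up 31.8 to 36.9% of the sum at 6 h and 25.5 to 28.8% at 24 h. Neither range overlaps the other (exact permutation p = 0.1 for each, two-sided, the smallest that 3 against 3 allows). Without these 5 genes the sums were 506451 to 528057 and 498659 to 505700. Replicates correlated at r = 0.988 to 0.993 over the tested genes (Pearson, log2 scale). Read totals are not given, so the depth is unknown.

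Between 6 h and 24 h, 6026 of 14775 genes changed (limma, Benjamini-Hochberg adjusted p under 0.05), which is 40.8% of those tested. Of these, 4570 genes (30.9%) rose and 1456 (9.85%) fell. The rises were many and small and the falls fewer and deeper: 247 genes (1.67%) rose and 150 (1.02%) fell by at least 1 on the log2 scale, yet the largest fall was 5.10 and the largest named rise 2.14. The split of directions depends on the scale of the libraries. The median log2 change over all tested genes was 0.16 and not 0. With libraries brought to a common median ratio that median was 0.01, and 2621 genes rose (17.7%) and 2907 fell (19.7%). Rescaled to an equal sum it was 0.32, and 6971 genes rose and 576 fell. Log2 changes below are on the log2(RPKM + 0.5) scale as deposited, which understates the change of genes at low levels, and are to be read against the median of 0.16.

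**Figure D1:**
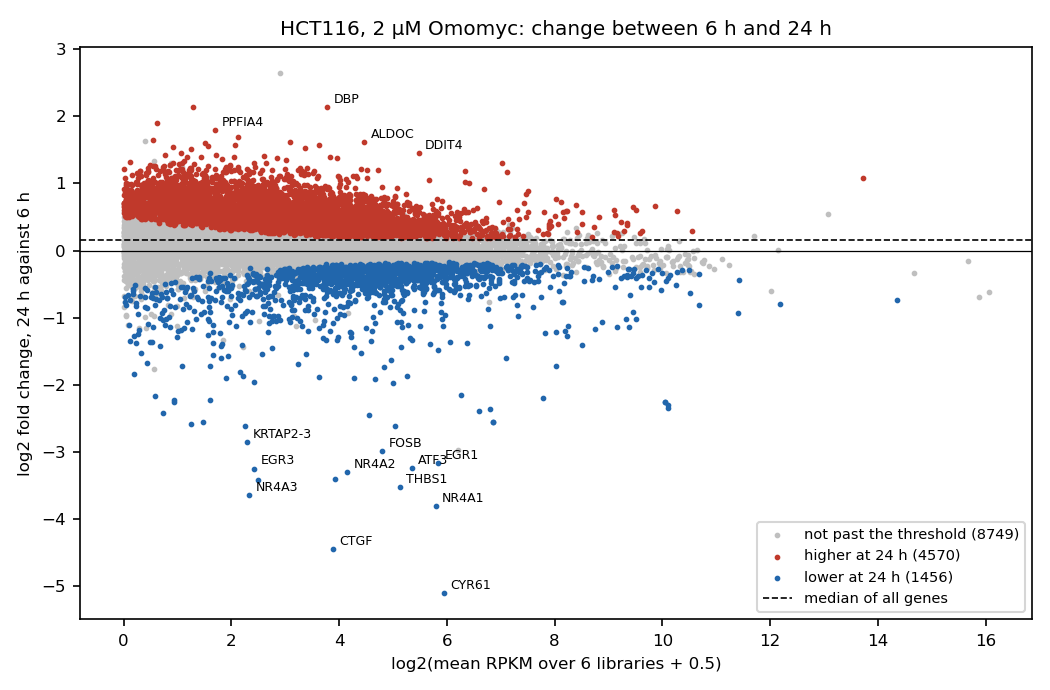
Log2 fold change from 6 h to 24 h (y axis) against the log2 of the mean RPKM plus 0.5 over the 6 libraries (x axis) for 14775 genes in HCT116 cells with 2 µM Omomyc, red where higher, blue where lower and grey where the adjusted p of 0.05 was not passed. The dashed line is the median of all genes at 0.16, and the named immediate early and matricellular genes lie far below it, down to CYR61 at -5.10.

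The deepest falls were in immediate early genes and in secreted proteins that respond to the same stimuli. CYR61, which encodes a matricellular protein of the CCN family, was at 129, 82 and 147 RPKM in the 3 libraries at 6 h and at 3.06, 2.33 and 3.37 RPKM at 24 h. CTGF, its paralog, was at 27.9, 21.8 and 33.6 RPKM at 6 h and at 0.828, 0.666 and 0.836 RPKM at 24 h. Every 6 h library was far above every 24 h library for both, and the log2 falls were -5.10 ± 0.20 (SE, adjusted p = 1.3e-06) and -4.45 ± 0.15 (adjusted p = 8e-07). The nuclear receptor NR4A1 was at 95, 86.2 and 129 RPKM at 6 h and at 6.33, 6.67 and 7.44 RPKM at 24 h (-3.81 ± 0.14). Its relatives followed, with NR4A3 at 8.51, 7.75 and 10.3 RPKM and then 0.197, 0.164 and 0.378 RPKM (-3.65 ± 0.16), and NR4A2 at 26.6, 29.5 and 39.1 RPKM and then 2.66, 3.13 and 2.46 RPKM (-3.30 ± 0.14). In all 3 receptors the 2 times were separated by more than the spread of the libraries. Across the table, 54.6% of genes had 3 and 3 libraries that did not overlap, and this was required of the 12 deepest falls.

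The promoters of 4 of the genes that lead the falls and rises are shown because they carry, in readable form, binding letters of transcription factor families. They are examples and do not stand for the other leading genes. Each window runs from 250 bases before to 50 after the start site (RefSeq, build GRCh38.p14), 5′ to 3′ on the gene's strand, with matches on either strand in capitals. The windows are EGR1 at chr5:138465229-138465528 (plus strand), CTGF (CCN2 in RefSeq) at chr6:131951323-131951622 (minus strand), NR4A3 at chr9:99821635-99821934 (plus strand) and ALDOC at chr17:28576846-28577145 (minus strand).
EGR1: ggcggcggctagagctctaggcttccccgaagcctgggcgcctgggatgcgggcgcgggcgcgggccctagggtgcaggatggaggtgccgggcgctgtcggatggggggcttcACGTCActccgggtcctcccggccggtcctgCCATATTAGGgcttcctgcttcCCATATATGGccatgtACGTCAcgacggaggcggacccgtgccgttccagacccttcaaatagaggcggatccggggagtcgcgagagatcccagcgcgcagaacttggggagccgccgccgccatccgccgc
CTGF: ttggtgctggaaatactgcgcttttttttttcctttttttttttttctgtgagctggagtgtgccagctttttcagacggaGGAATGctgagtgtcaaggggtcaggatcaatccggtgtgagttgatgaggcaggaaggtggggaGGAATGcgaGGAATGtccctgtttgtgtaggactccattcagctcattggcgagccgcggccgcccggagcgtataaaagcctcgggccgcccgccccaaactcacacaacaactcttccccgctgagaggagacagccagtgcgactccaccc
NR4A3: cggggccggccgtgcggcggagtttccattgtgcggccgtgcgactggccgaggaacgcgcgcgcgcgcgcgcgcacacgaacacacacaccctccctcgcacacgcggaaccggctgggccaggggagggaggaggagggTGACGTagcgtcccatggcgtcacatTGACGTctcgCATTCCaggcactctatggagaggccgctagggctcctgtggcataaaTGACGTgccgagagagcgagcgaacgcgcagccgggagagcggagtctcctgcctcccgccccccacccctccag
ALDOC: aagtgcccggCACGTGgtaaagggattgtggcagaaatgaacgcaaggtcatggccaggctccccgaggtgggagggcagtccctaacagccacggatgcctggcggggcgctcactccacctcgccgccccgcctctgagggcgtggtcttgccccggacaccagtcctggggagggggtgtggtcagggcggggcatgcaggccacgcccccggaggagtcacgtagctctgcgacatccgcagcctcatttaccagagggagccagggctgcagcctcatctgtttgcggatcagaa
In EGR1 the capitals mark 2 CArG boxes, the element of serum response factor, at -105 to -96 and -83 to -74 from the start site, and 2 cores of the cyclic AMP response element (CRE, TGACGT). In CTGF they mark 3 TEAD elements (GGAATG) at -169 to -164, -104 to -99 and -95 to -90, in NR4A3 they mark 3 CRE cores and 1 TEAD element, and in ALDOC they mark 1 E-box (CACGTG) at -240 to -235. The AP-1 site (TGACTCA) was searched as well and is in none of the 4 windows, and no 2 marked matches overlap. Of all 35116 RefSeq windows of this length, 1.29% hold a CArG box, 7.98% a CRE core, 14% a TEAD element, 4.95% an AP-1 site and 7.26% an E-box, so a TEAD element or a CRE core in a window is not rare. A match is a description of the letters and not evidence of binding.

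The transcription factors EGR1 and EGR3 fell in the same way. EGR1 was at 84.6, 94.8 and 129 RPKM at 6 h and at 9.85, 9.92 and 12.8 RPKM at 24 h (-3.17 ± 0.15, adjusted p = 4.4e-06), and EGR3 fell from 7.5, 8.9 and 11.3 RPKM to 0.447, 0.555 and 0.539 RPKM (-3.25 ± 0.16). ATF3, a bZIP factor induced by many stresses, was at 73.3, 69 and 78 RPKM and then at 6.77, 6.78 and 8.62 RPKM, a tight pair of groups with a log2 change of -3.24 ± 0.10 (adjusted p = 5.5e-07). The AP-1 subunit FOSB fell from 43.1, 44.6 and 58.8 RPKM to 5.57, 6.98 and 4.72 RPKM (-2.98 ± 0.15). The other genes among the 12 deepest falls of protein-coding genes were THBS1, the matrix protein thrombospondin 1 (-3.52 ± 0.16), CXCL8, the chemokine interleukin 8 (-3.41 ± 0.16), and the keratin-associated protein gene KRTAP2-3 (-2.85 ± 0.28). THBS1 overlaps another annotated gene on the same strand, so its reads could be shared.

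**Figure D2:**
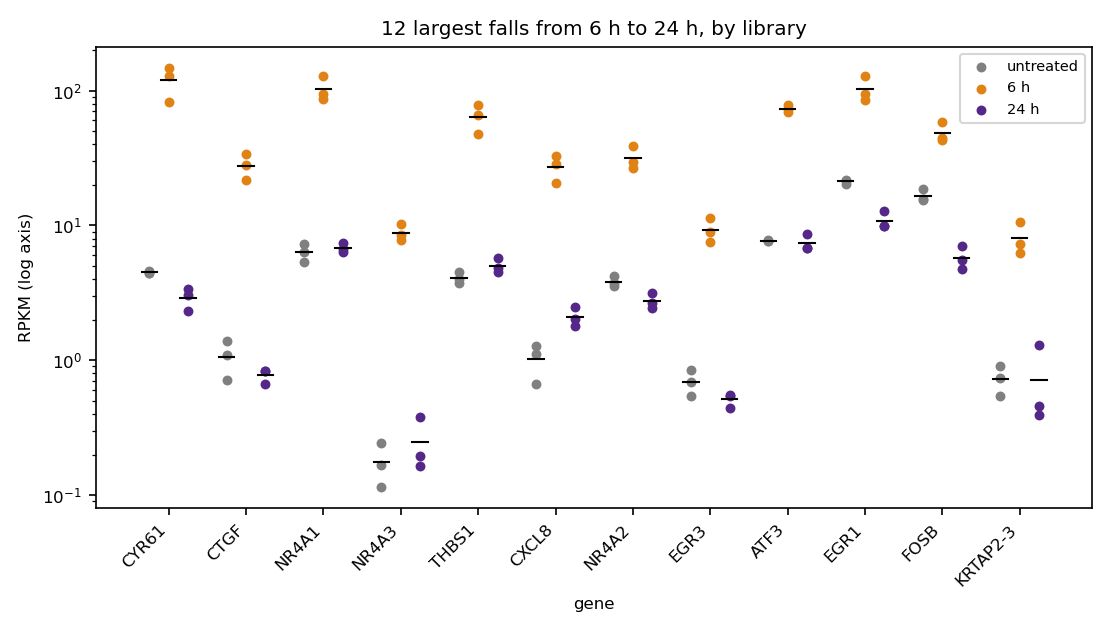
RPKM (y axis, log scale) of the 12 protein-coding genes with the deepest falls in the 3 untreated libraries (grey), the 3 at 6 h (orange) and the 3 at 24 h (purple) of HCT116 cells, with a bar at each mean. In all 12 genes the 6 h points lie above the untreated points. Their lack of overlap with the 24 h points was a condition of choice. CYR61 was at 82 to 147 RPKM at 6 h and at 2.33 to 3.37 RPKM at 24 h.

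As whole families, the same genes moved almost without exception. All 10 expressed AP-1 subunit genes fell, with a median of -1.87 and a range from -3.24 (ATF3) to -0.73 (BATF3). JUN, the central AP-1 subunit, fell from 52.8, 56 and 57.3 RPKM to 8.42, 6.54 and 11.7 RPKM (-2.61 ± 0.17), and FOSL1 fell by 1.86 on the log2 scale. Of 20 EGR, NR4A and other immediate early genes tested 17 fell and 1 rose, with a median of -1.61. Among all genes 9.85% fell and 30.9% rose. Serum response factor, SRF, was at 27.8 RPKM in each of the 3 libraries at 6 h and at 10.2, 10.1 and 9.73 RPKM at 24 h (-1.43 ± 0.07), and ZFP36, which destabilizes AU-rich mRNAs, fell by 1.97 and the zinc finger factor KLF6 by 1.74. IER5 was the 1 member that rose (0.51 ± 0.09). KLF2 and 1 other member did not pass (KLF2, -0.45 ± 0.18, adjusted p = 0.078). Leaving out each library in turn kept 10 AP-1 falls and 16 to 18 immediate early falls, and the counts under both other scalings were 10 and 16 to 19. Promoters of these families were matched for 22 of 30 genes, below the 80% required here, so a comparison of their motif shares is void.

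At 24 h some of these mRNAs did not differ from untreated cells by the test and others were below them. Of the 10 AP-1 genes 9 were higher than untreated at 6 h and none lower, and at 24 h 2 were higher and 3 lower. CYR61 (-0.56 ± 0.12, adjusted p = 0.011) and NR4A2 (-0.42 ± 0.11, adjusted p = 0.024) were below untreated at 24 h, as were FOS, FOSB and EGR1. The 2 comparisons with untreated cells share libraries with the time comparison, and their values are therefore given only side by side. They also depend on the scale of the libraries. As deposited, 2251 genes were higher and 4633 lower than untreated at 6 h. These became 3424 and 3180 with median-ratio scaling, and 629 and 8552 with an equal sum. At 24 h the counts were 2466 and 1605, then 2030 and 2103, and 893 and 2980. List counts against untreated cells are given at the deposited scale only. NR4A1 was at 5.34, 7.28 and 6.31 RPKM in untreated cells, and its log2 difference from untreated was 3.92 ± 0.15 at 6 h and 0.11 ± 0.11 at 24 h (adjusted p = 0.5). ATF3 differed by 3.17 ± 0.07 at 6 h and by -0.07 ± 0.10 at 24 h (adjusted p = 0.64), and JUN by 2.76 ± 0.07 and 0.15 ± 0.17 (adjusted p = 0.55). EGR1 was at 21.8, 20.3 and 21.5 RPKM in untreated cells, so its 24 h level was lower by -0.94 ± 0.10 (adjusted p = 0.00049) after a 6 h level that was higher by 2.23 ± 0.13. FOSB was likewise below untreated at 24 h (-1.45 ± 0.13, adjusted p = 0.00027). FOS followed neither pattern. It was at 106, 115 and 98.4 RPKM in untreated cells, at 106, 130 and 136 RPKM at 6 h (0.21 ± 0.10, adjusted p = 0.11) and at 30.3, 35.4 and 19.2 RPKM at 24 h (-1.94 ± 0.18, adjusted p = 0.00036). The untreated and 6 h libraries of FOS touch, and every 24 h library is below both. Of the 20 and 19 immediate early genes tested against untreated cells, 16 were higher at 6 h (15.5% of all genes tested) and none at 24 h (16.6%), and 1 was lower at 6 h (31.8%) and 7 at 24 h (10.8%).

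Growth factor ligands and feedback inhibitors of ERK signalling, the kinase cascade below the EGF receptor, were among the genes that fell. DUSP5, a nuclear ERK phosphatase and a direct readout of ERK activity, was at 164, 145 and 175 RPKM at 6 h and at 30.5, 28.3 and 32 RPKM at 24 h (-2.39 ± 0.09, adjusted p = 8e-07), against 30.4, 28.8 and 30.7 RPKM in untreated cells. The EGF receptor ligand AREG fell from 551, 473 and 572 RPKM to 201, 206 and 192 RPKM (-1.41 ± 0.09), and its relatives EREG and HBEGF fell by 1.12 and 0.98. For these ligands, too, no 24 h library reached a 6 h library. Of 20 ERK feedback genes tested, 11 fell and 3 rose, with a median of -0.33, where 9.85% and 30.9% of all genes did. The members did not share 1 course: the cytosolic ERK phosphatase DUSP6 fell from 99.2, 106 and 106 RPKM to 64.1, 74.1 and 58.1 RPKM (-0.67 ± 0.09), but untreated cells had 152, 160 and 160 RPKM, so that both times were below untreated (-0.60 ± 0.06 and -1.27 ± 0.08). The feedback inhibitor SPRY4 fell by 0.34, whereas SPRY1 (0.86 ± 0.19) and the ETS factors ETV1 (0.53 ± 0.09) and ETV5 (0.50 ± 0.09) rose. The count of falls was 8 to 11 when a library was left out, 12 with median-ratio scaling and 7 with an equal sum.

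NF-kB targets and YAP/TEAD targets fell in part, to be read against 9.85% falls and 30.9% rises among all genes. Of 18 NF-kB feedback and target genes 9 fell and 2 rose (median -0.35, and 9 or 10 falls without any 1 library). They were the neutrophil chemokines CXCL8 (28.5, 32.6 and 20.7 RPKM, then 1.78, 2.02 and 2.48 RPKM), CXCL2 (-1.90 ± 0.22) and CXCL1 (-1.72 ± 0.22), the inhibitors NFKBIA (-0.99 ± 0.09) and TNFAIP3 (-0.91 ± 0.16) and 4 others, while TNIP1, which acts with TNFAIP3, was among those that rose (0.57 ± 0.08). CXCL8 was still above untreated cells at 24 h (0.78 ± 0.18, adjusted p = 0.014). Of 16 targets of YAP and TEAD, the effectors of the Hippo pathway, 5 fell and 1 rose (median -0.16), with the median at 0.02 after rescaling to an equal sum. Besides CYR61 and CTGF the falls included the kinase NUAK2 (-1.86 ± 0.19) and the junction protein AMOTL2 (-1.21 ± 0.14).

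Among the 12 protein-coding genes with the largest rises, the clock output factor DBP came first. DBP was at 4.03, 4.99 and 4.66 RPKM at 6 h and at 25.6, 22.3 and 18 RPKM at 24 h (2.14 ± 0.13, adjusted p = 2.5e-05). Untreated cells had 14.6, 14.6 and 16.4 RPKM, so DBP was below untreated at 6 h (-1.64 ± 0.10) and above it at 24 h (0.51 ± 0.11, adjusted p = 0.012). MXD3, a MAX partner of the MXD family that competes with MYC for MAX, was at 5.59, 5.54 and 5.96 RPKM and then at 17.1, 17.9 and 18.9 RPKM (1.58 ± 0.08, adjusted p = 6.6e-06), against 15.1, 16.4 and 15.3 RPKM in untreated cells. The glycolytic enzyme ALDOC, whose promoter window holds the E-box printed above, rose from 9.14, 12.3 and 9.54 RPKM to 31.2, 41.9 and 25.6 RPKM (1.61 ± 0.17, adjusted p = 0.00041), and PFKFB4, a kinase and phosphatase that regulates glycolytic flux, rose from 4.91, 4.5 and 5.17 RPKM to 16.1, 14.9 and 13.6 RPKM (1.52 ± 0.10). Both ended above untreated cells (0.65 ± 0.14 and 0.86 ± 0.08). DDIT4, an inhibitor of mTORC1, was at 16.6, 19.5 and 36.9 RPKM at 6 h and at 74.7, 59.8 and 57.3 RPKM at 24 h (1.45 ± 0.25, adjusted p = 0.0024). Its replicate 3 at 6 h was well above the other two, though still below every 24 h library.

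The rest of the 12 were the scaffold gene PPFIA4 (1.80 ± 0.16), the pore-forming gasdermin GSDMB (1.69 ± 0.16), the receptor NOTCH3 (3.78, 3.34 and 3.97 RPKM, then 11.8, 11.4 and 13.8 RPKM, 1.61 ± 0.11), the CDK inhibitor CDKN1C (1.57 ± 0.18), the ephrin receptor EPHB3 (1.56 ± 0.13), ACCS (1.42 ± 0.19) and the phospholipase PLA2G6 (1.41 ± 0.16). That no 24 h library overlaps a 6 h library was a condition for choosing these 12, so it is not a result. NOTCH3, ALDOC, MXD3, PFKFB4 and ACCS overlap other annotated genes on the same strand, and their values are uncertain to that extent. Every one of the 12 was below untreated cells at 6 h, by between -1.79 (DDIT4) and -0.66 (PFKFB4). Of these 12 genes 10 matched a RefSeq promoter window and 4 of the 10 (40%) hold an E-box. Of all windows 7.26% hold one, but a gene can have several windows, so these shares are unlike. Of 14775 tested genes 10535 matched a window, and 12.6% of them hold an E-box. Among genes that rose by at least 1 on the log2 scale 162 of 247 matched. Both sets fall below the 80% of members required here, so no comparison with the 40% is drawn. The 10 genes are few and were chosen for their change, and the share is a description. The 12 deepest falls matched for 9 genes, below the 80% of members required here for motif shares.

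**Figure D3:**
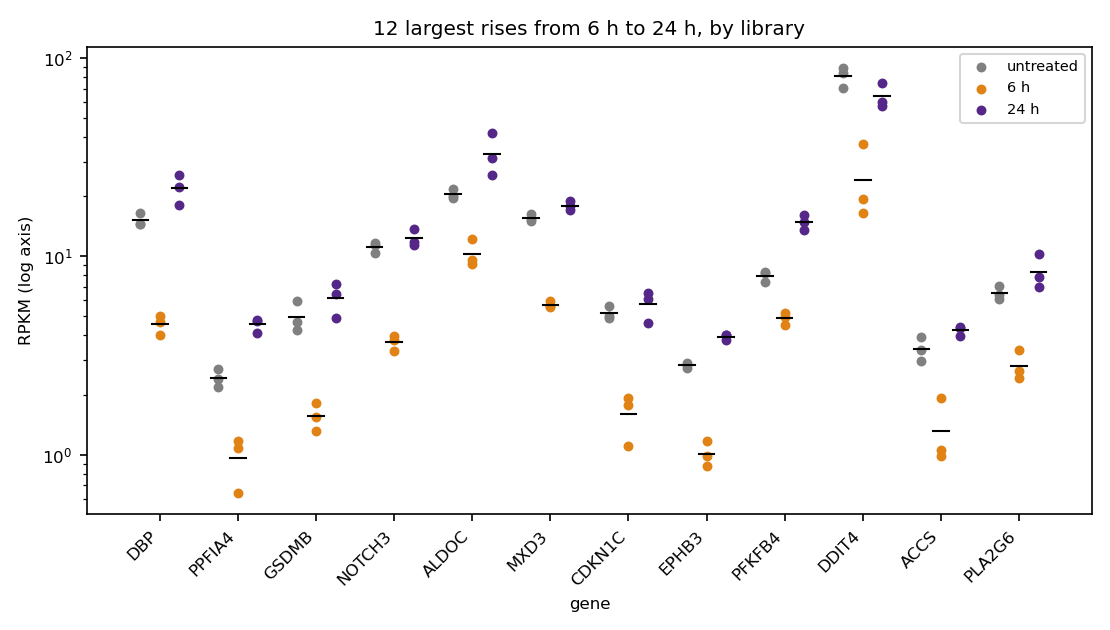
RPKM (y axis, log scale) of the 12 protein-coding genes with the largest rises in the 3 untreated libraries (grey), the 3 at 6 h (orange) and the 3 at 24 h (purple), with a bar at each mean. In all 12 genes the 6 h points lie below the untreated points. Their lack of overlap with the 24 h points was a condition of choice. DBP was at 4.03 to 4.99 RPKM at 6 h and at 18 to 25.6 RPKM at 24 h.

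Transcripts that do not code for protein were named by the same rule. The 4 largest rises were the long noncoding RNAs LINC00640 (1.60 ± 0.19) and LINC01876 (1.36 ± 0.16), the ribosomal protein pseudogene RPL32P29 (1.30 ± 0.21) and the pseudogene AHSA2P (1.24 ± 0.08). The 4 deepest falls were small RNAs: RF00019 (-3.41 ± 0.60), annotated as a Y RNA family member, and 3 copies of U1, RNU1-11P (-2.56 ± 0.22), RNU1-3 and RNU1-28P (both -2.56 ± 0.58). RNU1-3 and RNU1-28P have identical values in each of these libraries (189, 229 and 146 RPKM, then 79.6, 37.2 and 9.89 RPKM), so they share reads and count as 1 measurement. LINC01876, RPL32P29 (with RPS29) and RNU1-11P overlap other genes on their strand, so their reads could be shared. Small RNA classes moved between the times as sums: snRNA genes other than RN7SK, which holds most of that class, summed to 7156 to 12325 RPKM at 6 h and 2345 to 3169 RPKM at 24 h, and snoRNA genes to 9611 to 16221 RPKM and 18596 to 25645 RPKM. Neither pair of ranges overlaps (exact permutation p = 0.1 for each).

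Genes of MYC's own network changed in both directions. MYC itself fell from 156, 153 and 159 RPKM to 92.7, 96.3 and 98.1 RPKM (-0.71 ± 0.06, adjusted p = 0.00017). Untreated cells had 115, 116 and 124 RPKM, so MYC mRNA was above untreated at 6 h (0.40 ± 0.06) and below it at 24 h (-0.30 ± 0.05). MAX, the shared partner, was at 17.1, 20.3 and 16.7 RPKM and then at 15.2, 16.7 and 17.4 RPKM, with overlapping libraries (-0.12 ± 0.09, adjusted p = 0.32). Of the 13 network genes tested 5 rose and 1 fell, where 30.9% and 9.85% of all genes did. Besides MXD3 the rises were MYCL (1.21 ± 0.11), a MYC paralog, the MYC antagonists MXD4 (0.63 ± 0.16) and MXI1 (0.34 ± 0.09, not past the threshold under 7 of 18 alternatives), and MLXIPL (0.84 ± 0.16), the glucose-responsive factor ChREBP. With median-ratio scaling the network had 4 rises and 5 falls.

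Genes of ribosome production, the best known MYC-dependent group, fell by small amounts, to be read against 9.85% falls among all genes. Of 56 ribosome biogenesis genes 28 fell and 1 rose (median -0.23 against 0.16 for all genes), the steepest being GAR1, a snoRNP protein (16.8, 16.3 and 18.1 RPKM, then 10.6, 10.7 and 7.87 RPKM, -0.79 ± 0.12), the 40S assembly factor RRP12 (-0.75 ± 0.11) and NIP7 of the large subunit (-0.64 ± 0.07). Nucleolin, NCL, fell from 321, 313 and 368 RPKM to 266, 253 and 248 RPKM (-0.38 ± 0.08), and LYAR and RRS1 fell by 0.56 and 0.45. NOC2L was the member that rose (0.21 ± 0.07, adjusted p = 0.029), but did not pass under 10 of 18 alternatives. On the scale as deposited, more of these genes differed from untreated cells at 6 h than at 24 h. At 6 h 36 of 56 were higher than untreated and 1 lower, where 15.5% and 31.8% of all genes were. At 24 h 5 were higher and 6 lower, where 16.6% and 10.8% of all genes were. Without any 1 library 20 to 31 genes fell, with median-ratio scaling 47 fell and with an equal sum 11 fell and 3 rose. Of the 56 genes 46 matched a promoter window, and 22 of the 46 (47.8%) hold an E-box. Of 33 matched mitosis genes 5 (15.2%) hold an E-box. The share was 12.6% of the tested genes that matched, a set below the 80% required here, so no comparison with it is drawn. Of all windows 7.26% hold an E-box, but a gene can have several windows, so that share is unlike a share of genes.

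Cytosolic ribosomal protein genes fell by similar amounts, with a count that moved more between settings. Of 79 genes 27 fell and none rose (median -0.24, range -0.63 to -0.05), where 9.85% of all genes fell and 30.9% rose. RPS12 was at 1708, 2107 and 1534 RPKM and then at 1169, 1227 and 1042 RPKM (-0.63 ± 0.13), and RPS29 and RPL37 fell by 0.54 each. The falls numbered 13, 16 and 11 without replicate 1, 2 or 3 of the 24 h libraries, 59 with median-ratio scaling and 5 with an equal sum. Proteasome genes were similar, with 11 of 33 falling (median -0.11), among them PSMC5 (-0.50 ± 0.09) and PSMB2 (-0.38 ± 0.10), and the median turned to 0.07 with an equal sum, where 1 fell. Without any 1 of the 24 h libraries 7 fell. Of 74 nuclear genes of oxidative phosphorylation 9 fell and 6 rose (median -0.09), but the 9 became 18 without replicate 3 at 6 h, 5 without replicate 2 at 6 h, 3 without replicate 1 or 2 at 24 h and 5 without replicate 3 at 24 h, with an equal sum there were 15 rises and no fall, and with median-ratio scaling 3 rises and 34 falls. Complex II held both directions, SDHC (-0.44 ± 0.12) and SDHA (0.40 ± 0.08).

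**Figure D4:**
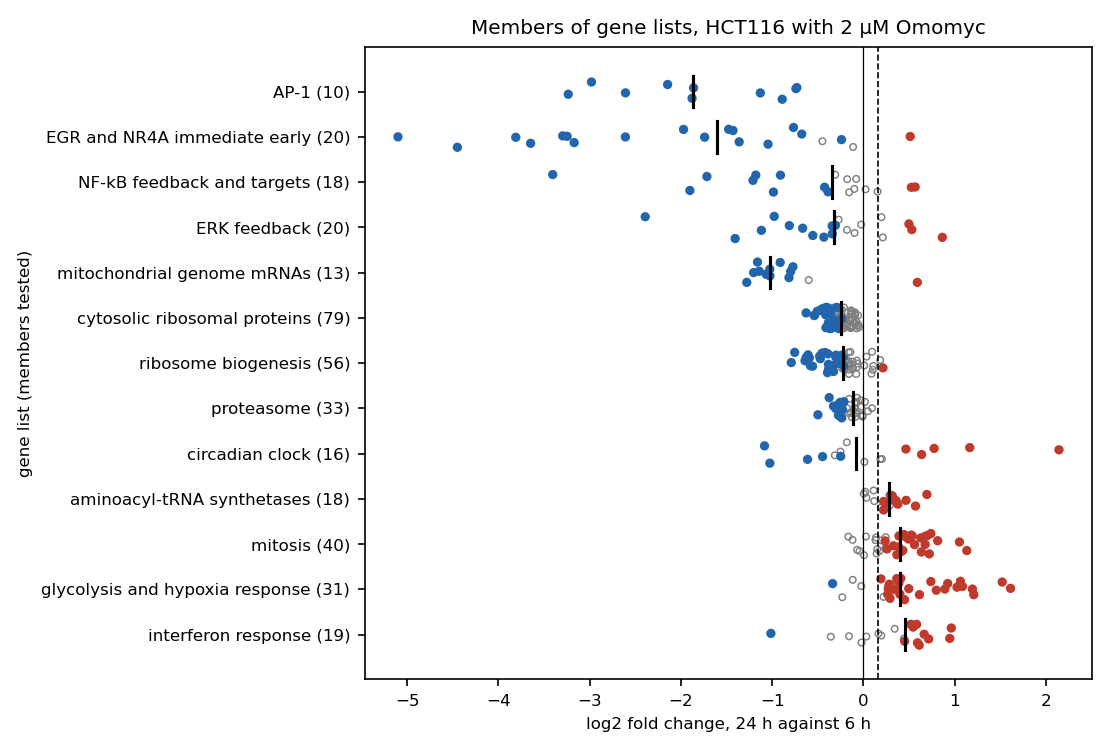
Log2 fold change from 6 h to 24 h (x axis) of the tested members of 13 gene lists (y axis) in HCT116 cells with 2 µM Omomyc, 1 point a gene, red where higher, blue where lower and open grey where the adjusted p of 0.05 was not passed. Vertical bars are the list medians and the dashed line is the median of all genes at 0.16, and the AP-1 list has its median at -1.87 while mitosis and glycolysis both have theirs at 0.40.

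Transcripts of the mitochondrial genome were high at 6 h and fell by 24 h, but stayed above untreated cells. MT-ND1, a subunit of complex I, was at 236, 460 and 593 RPKM at 6 h, at 179, 113 and 220 RPKM at 24 h and at 36.5, 41.2 and 26.7 RPKM in untreated cells. Its log2 change was -1.28 ± 0.33 with time (adjusted p = 0.013) and it was still above untreated at 24 h (2.25 ± 0.23). Of the 13 mRNAs 11 fell and 1 rose (median -1.03), where 9.85% and 30.9% of all genes did. MT-ATP8 changed by -1.20 ± 0.28 and MT-CO3 by -0.80 ± 0.22. MT-CO1 did not pass (-0.60 ± 0.22, adjusted p = 0.054). MT-ND6, the only mRNA of the light strand, was the member that rose, from 36.4, 39.7 and 57.4 RPKM to 66.5, 61.6 and 69.7 RPKM (0.59 ± 0.15, adjusted p = 0.012). The 6 h libraries spread widely, with a mitochondrial sum of 13280 to 24015 RPKM against 8007 to 13267 RPKM at 24 h, and only 4 of the 13 fell without replicate 3 at 6 h or without replicate 2 at 24 h. All 13 were above untreated at 24 h and 12 at 6 h, where 16.6% and 15.5% of all genes were.

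Genes of mitosis and of glycolysis were among the lists with the highest shares of rises. Of 40 mitotic genes 26 rose and none fell (median 0.40), where 30.9% of all genes rose and 9.85% fell. There were 24 to 28 rises when 1 library was left out, and 22 rises and 2 falls with median-ratio scaling. TOP2A, the mitotic topoisomerase, rose from 36.2, 30.3 and 31.5 RPKM to 68.3, 72.9 and 63.2 RPKM (1.05 ± 0.09, adjusted p = 0.00013). The phosphatase CDC25C (1.13 ± 0.12), the checkpoint kinase TTK (0.81 ± 0.07), the kinesin CENPE (0.74 ± 0.08) and the kinase CDK1 (0.47 ± 0.09) rose with it. At 6 h 28 of the 40 were below untreated and 3 above, where 31.8% and 15.5% of all genes were. At 24 h 3 were below and 9 above, where 10.8% and 16.6% of all genes were. TTK and CDC25C no longer differed from untreated by the test at 24 h (adjusted p = 0.25 and 0.76). DNA replication genes had no common direction: 8 of 37 rose and 2 fell (median 0.04), such as POLE (0.53 ± 0.13) and GINS3 (-0.31 ± 0.09), the rises numbered 4 without replicate 3 at 6 h or any 1 of the 24 h libraries, and with median-ratio scaling 1 rose and 10 fell.

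Of 31 genes of glycolysis and the hypoxia response 25 rose and 1 fell (median 0.40), where 30.9% and 9.85% of all genes did. NDRG1, a hypoxia-induced gene, rose from 11.8, 10.9 and 14.4 RPKM to 28.7, 33.1 and 25.8 RPKM (1.21 ± 0.12). The collagen hydroxylase P4HA1 (1.19 ± 0.11), the enolase ENO2 (1.08 ± 0.09) and the mitophagy receptors BNIP3 (1.06 ± 0.16) and BNIP3L (1.02 ± 0.13) rose similarly, while hexokinase 2, HK2, fell (-0.34 ± 0.11, adjusted p = 0.038), though not under 8 of 18 alternatives. Against untreated cells 15 of 31 were lower and 3 higher at 6 h, where 31.8% and 15.5% of all genes were. At 24 h 16 were higher and 2 lower, where 16.6% and 10.8% of all genes were. BNIP3 was at 10.8, 11.6 and 11.3 RPKM untreated, at 9.57, 13.3 and 9.53 RPKM at 6 h and at 25.1, 26 and 18.2 RPKM at 24 h. Its 6 h and untreated libraries overlap and its 24 h libraries lie above both. The rises numbered 17 to 24 when a library was left out and 15, with 3 falls, with median-ratio scaling. Of the 31 genes 27 matched a promoter window and 8 (29.6%) hold an E-box. The share was 12.6% of the tested genes that matched, a set below the 80% required here, so no comparison is drawn.

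Clock genes moved in both directions. Of 16 genes 5 rose and 5 fell (4 or 5 each without any 1 library), where 30.9% and 9.85% of all genes did. With DBP, its relative TEF (0.64 ± 0.10) and the repressor NR1D1 (4.11, 5.9 and 7.72 RPKM, then 13.9, 11.5 and 15.3 RPKM, 1.16 ± 0.19) rose, whereas the repressors BHLHE40 (-1.08 ± 0.12), CRY1 (-1.03 ± 0.11) and PER2 (-0.61 ± 0.11) fell. CRY1 and PER2 were above untreated at 6 h (0.98 ± 0.10 and 0.74 ± 0.10) and not by the test at 24 h (adjusted p = 0.74 and 0.4).

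Of the 5 genes that the study followed by RT-PCR as MYC-related, 3 rose, 1 fell and 1 did not pass. Among all genes 30.9% rose and 9.85% fell. When a library was left out, 2 to 4 of the 5 rose and 1 fell. The study chose 4 of the 5 on libraries of this series, so they are not independent evidence of a direction. SAT1, the spermidine and spermine acetyltransferase, was at 117, 129 and 131 RPKM at 6 h and at 227, 295 and 186 RPKM at 24 h (0.88 ± 0.14, adjusted p = 0.002), against 603, 667 and 650 RPKM in untreated cells. ASNS, asparagine synthetase, rose from 28.3, 25.2 and 39.6 RPKM to 46, 50.3 and 42.2 RPKM (0.59 ± 0.15, adjusted p = 0.012), against 118, 123 and 141 RPKM untreated. Both stayed below untreated cells at 24 h (-1.46 ± 0.14 and -1.45 ± 0.08), and ASNS overlaps another gene on its strand. ID3, an inhibitor of helix-loop-helix factors, stayed low with overlapping libraries, at 19.4, 23 and 21.5 RPKM and then 22.5, 26.3 and 26.2 RPKM (0.23 ± 0.09, adjusted p = 0.075), against 83.4, 86.5 and 91.3 RPKM untreated. EGR2 fell with the other immediate early genes, from 8.47, 6.42 and 8.2 RPKM to 0.73, 0.609 and 1.24 RPKM (-2.61 ± 0.18), and its untreated level was 0.708, 0.941 and 0.491 RPKM. CD274, which encodes PD-L1, was at 0.755, 0.92 and 0.817 RPKM and then at 1.36, 1.45 and 1.17 RPKM (0.45 ± 0.15, adjusted p = 0.037). This rise at a low level did not pass under 11 of 17 alternatives of scaling, filter, model or left-out library, with an adjusted p of 0.0105 to 0.421 across them. Untreated cells had 1.13, 0.605 and 0.617 RPKM of CD274. Its log2 difference from untreated at 24 h was 0.53 ± 0.18 (adjusted p = 0.058).

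ID1, the relative of ID3, did rise, from 38.3, 55.7 and 54.2 RPKM to 115, 119 and 102 RPKM (1.19 ± 0.13, adjusted p = 0.0005), and remained below the 264, 274 and 271 RPKM of untreated cells. The BMP feedback inhibitor SMAD6 rose (0.64 ± 0.14) and the ligand BMP4 fell (-0.46 ± 0.06). Of 14 ID and BMP or TGF-beta genes 4 rose and 2 fell, where 30.9% and 9.85% of all genes did. Of 17 genes of amino acid synthesis and transport driven by the stress factor ATF4, 6 rose and 1 fell (median 0.18), near the 30.9% and the median of 0.16 of all genes, including the serine pathway enzyme PHGDH (0.55 ± 0.10), and the 6 became 3 without replicate 2 or 3 at 24 h. With median-ratio scaling 2 rose and 3 fell. Aminoacyl-tRNA synthetase genes had 11 rises and no fall among 18 (median 0.27), led by AARS (39.9, 35.6 and 44.3 RPKM, then 62.7, 69.7 and 62 RPKM, 0.69 ± 0.09), EPRS (0.57 ± 0.10) and CARS (0.47 ± 0.10). Of these, 7 rose without replicate 1 at 24 h, 6 without replicate 2 at 24 h, and 3 with median-ratio scaling. All of the group's 12 genes that passed the test against untreated cells at 24 h were lower than untreated, as were the 14 at 6 h. Among all genes 10.8% were lower than untreated at 24 h and 31.8% at 6 h. ATF5, a stress factor of the same pathway, fell (-1.05 ± 0.11).

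Interferon genes rose in part and lipid genes split. Of 19 interferon response genes 10 rose and 1 fell (median 0.45, and 9 to 11 rises without any 1 library), where 30.9% and 9.85% of all genes did. The transcription factors IRF7 (0.96 ± 0.15), STAT2 (12.5, 9.51 and 12.5 RPKM, then 21.5, 22.4 and 23.4 RPKM, 0.95 ± 0.11) and IRF9 (0.71 ± 0.12) were among the rises and OASL was the fall (-1.01 ± 0.15). Against untreated cells STAT2 was lower at 6 h (-0.88 ± 0.11) and did not differ by the test at 24 h (0.07 ± 0.06, adjusted p = 0.39). Of 25 sterol genes 6 rose and 5 fell. The SREBP2 targets INSIG1 (48.7, 46.7 and 50.5 RPKM, then 22.4, 30.1 and 15.5 RPKM, -1.13 ± 0.19) and HMGCS1 (-0.72 ± 0.09) fell, whereas SREBF2 itself (0.64 ± 0.10) and the cyclase LSS (0.59 ± 0.10) rose, and the falls became 8 without replicate 2 at 6 h. With median-ratio scaling 3 sterol genes rose and 9 fell.

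Cell cycle inhibitors, p53 targets and survival genes also held both directions, to be read against 30.9% rises and 9.85% falls among all genes. Of 21 genes of G1 control 8 rose and 4 fell, with the CDK inhibitors CDKN1C, CDKN2C (1.12 ± 0.16) and CDKN1A (0.26 ± 0.08, not past the threshold under 8 of 18 alternatives) among the rises and the cyclins CCND1 (-0.34 ± 0.08) and CCNE2 (-0.48 ± 0.10) among the falls. Without replicate 1 at 6 h or any 1 of the 24 h libraries 5 rose, without replicate 2 at 24 h 2 fell, and with median-ratio scaling 4 rose and 8 fell. Of 21 p53 targets 8 rose and 4 fell: TP53INP1 rose (1.02 ± 0.14) and PLK2 (91.6, 75.6 and 83.7 RPKM, then 28.5, 31.2 and 29.3 RPKM, -1.48 ± 0.08), PLK3 (-1.20 ± 0.10) and GADD45A (-0.84 ± 0.11) fell. The p53 list had 4 rises without replicate 1 or 2 at 24 h and 4 rises and 5 falls with median-ratio scaling. In the BCL2 family PMAIP1, which encodes NOXA, and its partner MCL1 both fell (-1.11 ± 0.08 and -0.58 ± 0.07), while the BH3-only gene BMF rose (0.71 ± 0.19), 2 rises and 3 falls among 15.

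In the remaining lists changes were few or mixed, to be read against 30.9% rises and 9.85% falls among all genes. WNT targets had 7 rises and 3 falls among 14, with NKD1 (0.93 ± 0.17) and AXIN2 (0.52 ± 0.12) higher and the secreted inhibitor DKK1 lower (186, 126 and 145 RPKM, then 64.6, 64.1 and 79.4 RPKM, -1.12 ± 0.14), and 5 and 5 with median-ratio scaling. Autophagy and lysosome genes had 9 rises and 1 fall among 28, a share of rises near the 30.9% of all genes, led by the kinase ULK1 (0.84 ± 0.19) and the lipid transfer protein ATG2A (0.79 ± 0.13). These 9 became 15 without replicate 1 at 6 h and 5 without replicate 3 at 24 h, and 3 rises and 5 falls with median-ratio scaling. NRF2 targets had 3 rises and 7 falls among 16, with FTH1 (-0.66 ± 0.11) and TXN (-0.48 ± 0.11) lower. Heat shock genes had 5 rises and 2 falls among 16. HSPA1B rose from 132, 126 and 123 RPKM to 226, 219 and 240 RPKM (0.84 ± 0.07) and HSPA1A by 0.87, which are near-identical copies that share reads, and the chaperonin cofactor HSPE1 fell (-0.37 ± 0.12, not past the threshold under 7 of 18 alternatives). The 5 became 3 without replicate 1 or 2 at 24 h. Polyamine genes had 2 rises, SAT1 and the oxidase PAOX (0.65 ± 0.16), and 2 falls, among them the spermidine synthase SRM (-0.42 ± 0.12, with libraries that overlap), in 11. With median-ratio scaling the polyamine list had 2 rises and 6 falls, and with an equal sum 4 rises and no fall. Of 9 genes whose promoters the study tested by chromatin immunoprecipitation, 1 rose (FBXW8, 0.53 ± 0.10) and 3 fell. ER chaperones (4 rises and 2 falls of 21), fatty acid synthesis (3 and 0 of 11), ATF4 stress regulators (1 and 1 of 10) and immune ligands (4 and 2 of 10) showed no common direction. The ER chaperone rises numbered 1 to 8 when a library was left out, and the immune ligand rises 0 or 1 without any 1 of the 24 h libraries. With median-ratio scaling the ER chaperones had 1 rise and 3 falls and the immune ligands no rise and 2 falls.

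The same time comparison at 10 µM, which shares no library with that at 2 µM, gave fewer calls, 1173 of 14920 genes (7.86%), of which 865 rose and 308 fell. In it replicate 3 at 6 h stood apart, with an RPKM sum of 1051041 of which the 5 structural RNAs took 50.4%, and 3506 genes passed without it. Without any 1 of the 24 h libraries 161 to 195 genes passed, and 256 with a replicate block. Of the 14561 genes tested at both doses, 5985 passed at 2 µM and 1162 at 10 µM. Of these, 1015 passed at both with the same sign, which is 17% of the 2 µM calls and 87.3% of the 10 µM calls, and 2 passed with opposite signs. Among the 5985, the 10 µM change had the same sign for 93.4%, against 77.9% of all genes. Across genes, which are not independent replicates, the 2 sets of log2 changes had r = 0.722 (Pearson) and 0.678 (Spearman). The 2 genes with opposite signs, named after their values were seen, were the histone gene HIST2H4B (-0.88 ± 0.19 at 2 µM and 1.82 ± 0.39 at 10 µM) and the small Cajal body RNA SCARNA10 (0.57 ± 0.12 and -1.33 ± 0.32), both in regions with overlapping genes.

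The change itself, tested as a dose by time interaction, differed between the doses for 1 of 14856 genes (0.00673%), and 1239 passed an unadjusted p of 0.05. That gene, GUSBP9, is an unprocessed pseudogene near 0 in all 2 µM libraries. It passed the level filter only through the 10 µM libraries at 24 h, where it was high. For the leading genes the changes at 2 µM and 10 µM were -5.10 and -5.15 (CYR61), -4.45 and -4.63 (CTGF), -3.24 and -3.17 (ATF3), -3.17 and -3.91 (EGR1), and 2.14 and 2.23 (DBP). All 12 deepest falls passed at 10 µM as well, and of the 12 largest rises 9 did: NOTCH3 (0.95 ± 0.30, adjusted p = 0.084), ACCS (0.96 ± 0.28, adjusted p = 0.069) and PLA2G6 (0.62 ± 0.18, adjusted p = 0.069) missed the threshold there. At 10 µM the AP-1 list had 9 falls of 10 and the immediate early list 16 of 20, where 2.06% of all genes fell, and mitosis had 22 rises of 40 and glycolysis 12 of 31, where 5.8% of all genes rose. Other lists that fell at 2 µM had few or no falls at 10 µM. Ribosome biogenesis had 3 of 56 (median -0.12), against a median of 0.15 for all genes. None of 79 cytosolic ribosomal protein genes (median -0.05), 13 mitochondrial mRNAs (-0.97) or 33 proteasome genes (0.21) fell past the threshold. A missed threshold at 10 µM does not show that a change was absent.

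**Figure D5:**
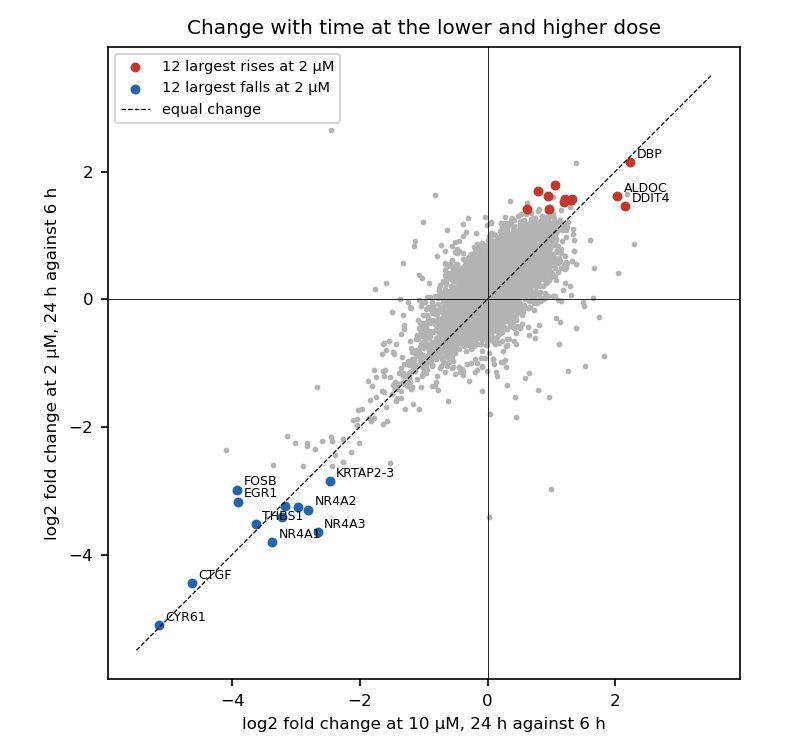
Log2 fold change from 6 h to 24 h at 2 µM (y axis) against that at 10 µM (x axis) in HCT116 cells for the 14561 genes tested at both doses, 1 point a gene, with the 12 deepest falls at 2 µM in blue and the 12 largest rises in red. The dashed line marks equal change, and the falls lie along it from KRTAP2-3 to CYR61 at -5.10 and -5.15.

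Ramos cells given 2.5 µM Omomyc for 6 and 24 h, which share no library with the HCT116 groups, changed differently with time. The line by time interaction passed for 5707 of 15594 genes (36.6%), with 4012 changes more positive and 1695 more negative in HCT116 cells. All 10 AP-1 genes and 17 of 20 immediate early genes were among the more negative ones, with 10.9% of all genes in that direction, and 25 of 31 glycolysis and hypoxia genes and 25 of 40 mitotic genes were among the more positive ones, with 25.7%. NR4A1, which fell from 103 to 6.81 RPKM in HCT116 cells (means), was at 8.86 RPKM at 6 h and 9.04 RPKM at 24 h in Ramos cells. MXD3 went from 5.7 to 18 RPKM in HCT116 cells and from 19.9 to 10.9 RPKM in Ramos cells, with an interaction of 2.41 ± 0.09 (adjusted p = 2.96e-08). Of 56 ribosome biogenesis genes 40 were more negative and 1 more positive in HCT116 cells. The lines differ in tissue of origin and in the labelled dose. The methods name ProteoJuice for RNA-Seq of HCT116 cells only, so the delivery may differ too. None of these can be told apart from the difference in response.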

How the data were processed

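RNA-Seq was analysed from the gene table that the authors deposited, 1 RPKM value per gene and library, made with RSEM according to the submitters' processing notes. The aligner, genome build and annotation are not given in the sources used here. Ensembl IDs were given symbols from GENCODE release 29 (57388 of 57992 matched). Genes with a mean of at least 0.5 RPKM over the libraries compared were fitted in limma 3.58.1 (R 4.3.3) on log2(RPKM + 0.5), with groups as the only term, empirical Bayes moderation with a trend and Benjamini-Hochberg adjustment over all genes tested, and called at an adjusted p under 0.05. Single sums were compared with an exact permutation test (two-sided). Read depth is unknown, so no counting intervals are given. On simulated data 184 of 200 changed genes were recovered among 14775, with 9 false calls. Each was changed by 1 on the log2 scale, from a mean log2 level above 1, with Gaussian spread and no shift between libraries. In the data 6026 genes passed, 397 of them with a change of at least 1, so these figures do not describe the calls.

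Named genes were the 12 protein-coding and 4 other genes with the largest change in each direction, with a mean of at least 2 RPKM and non-overlapping libraries, plus the genes the study followed and examples from gene lists. The groups, lists and members were chosen with earlier results of these data known. Whether replicate numbers pair the libraries could not be decided (correlation of same-numbered deviations -0.04, 0.09 and 0.14), and the main fits used no pairing. The alternatives were other scalings, pseudocounts, filters and models, a replicate block, and leaving out each library. A few genes are not reported here.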

Additional observations from a re-analysis of the deposited data

Results flagged for a closer look

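Groups of 3 libraries are too small for a test of outlying samples, so only differences between effects are listed here, each from an interaction term in limma. The change from 6 h to 24 h differed between 2 µM and 10 µM Omomyc for 1 gene of 14856, GUSBP9, with a difference of -2.49 ± 0.24 (adjusted p = 0.00232). This pseudogene was near 0 in all 2 µM libraries and in those at 10 µM and 6 h, and averaged 2.40 RPKM at 10 µM and 24 h. It passed the level filter only through that last group, so its call is a description and not a test of dose. In the untreated libraries it ranged from near 0 to 0.716 RPKM.

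The change differed between HCT116 at 2 µM and Ramos at 2.5 µM for 5707 of 15594 genes. The 5 most negative differences among the named genes were CYR61 (-5.10), CTGF (-4.45), NR4A3 (-4.05), EGR2 (-4.00) and NR4A1 (-3.83). CYR61 and CTGF were listed at 0 in the Ramos groups, so their difference is the HCT116 change alone, whereas EGR2 was higher at 24 h than at 6 h in Ramos cells (means of 14.2 and 5.11 RPKM). The 5 most positive were H3F3AP4 (5.64), MXD3 (2.41), ALDOC (2.28), PFKFB4 (2.25) and SNORD94 (2.15). H3F3AP4, a histone pseudogene, was at 26.4 RPKM at 6 h and near 0 at 24 h in Ramos cells. It passed the level filter only through the Ramos libraries at 6 h. Its difference therefore came from Ramos and not from HCT116 cells. The labelled doses differ between the lines, and the methods name ProteoJuice for RNA-Seq of HCT116 cells only. The part of dose and delivery in these differences was not tested.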

How the results depend on the processing

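For the 24 h against 6 h comparison at 2 µM, 6026 genes passed, 397 of them with a log2 change of at least 1 and 3147 at an adjusted p under 0.01, and 4185 (without replicate 2 at 24 h) to 5650 when a library was left out. For 6 h against untreated the 6884 calls became 482 and 4421 under the same stricter thresholds and 5238 to 6793 with a library left out. For 24 h against untreated the 4071 calls became 114 and 1659 under those thresholds, 2282 with no filter on low values, 1113 with all 5 HCT116 groups in one fit, and 2167 (without untreated replicate 3) to 3665 with a library left out, and were 2597 without untreated replicate 1. At 10 µM the 1173 calls became 238 and 188 under those thresholds, 296 with no filter and 4297 with all 5 groups, and ranged from 161 (without replicate 2 at 24 h) to 3506 (without replicate 3 at 6 h), with 171, 195 and 439 without replicates 1 and 3 at 24 h and replicate 1 at 6 h. The dose by time count of 1 was 0 with a pseudocount of 0.1, with a mean of at least 2 RPKM or with all 5 groups, 4 with no filter, and 0 to 28 with a library left out (28 without 10 µM replicate 3 at 6 h). The line by time count of 5707 became 613 and 3317 under the stricter thresholds and 4868 to 5918 with a library left out. The causes were not tested.

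The log2 difference of library sums, 24 h less 6 h, was -0.33 for snRNA genes, mostly RN7SK (-0.15 after rescaling to an equal sum), -0.18 for all genes (-0.35 with median-ratio scaling) and -0.82 for the mitochondrial genome. MAX, not past the threshold, turned from -0.12 to 0.052 (adjusted p = 0.682) with an equal sum. No other gene named for its change from 6 h to 24 h changed sign under any alternative run. The calls of CD274, NOC2L, HK2, CDKN1A, MXI1, HSPE1, SRM, SPRY4 and GINS3 were lost under at least 6 alternatives each, and those of the 12 largest rises and 12 deepest falls under none.

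Samples with the same replicate number deviated together only weakly (r = -0.04, 0.09 and 0.14). Replicate 1 at 6 h correlated best with another number, and replicates 2 and 3 at 6 h with their own. With 3 libraries in a group these values cannot decide whether the numbers pair the libraries. The main fits used no pairing. A replicate block moved the count at 2 µM from 6026 to 6070 and that at 10 µM from 1173 to 256. Together with removal of the trend on gene length it gave 355 at 10 µM and 2 for dose by time.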
